A study of Mus musculus with 60 samples.

Results

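DNA replication and nucleotide supply genes are described here in Balb/c 3T3 cells exposed to 4 carcinogens or to solvent alone. The set holds 42 genes chosen by symbol, and 41 of them were matched to a probe set and tested, out of 18194 genes named on the array and 12650 genes tested. No probe set naming Chaf1a alone was matched, so that gene is not analysed here. Each gene was read by the matching probe set with the highest mean. Of the 41 genes, 37 exceeded the array's median probe set on all 3 arrays of every one of the 20 groups, and the exceptions were Orc1, Cdc6, Ccne2 and Tyms, with 17, 18, 18 and 16 such groups.

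Total RNA was measured on 60 arrays of 1 colour, each with 45101 probe sets of oligonucleotides. Balb/c 3T3 is an established line of embryonic mouse fibroblasts, and all groups were BALB/c cells of that 1 line. In a first approach the cells received AAF (2-acetylaminofluorene, an aromatic amide) at 25 µM, BaP (benzo(a)pyrene, a polycyclic aromatic hydrocarbon) at 0.5 µM, DAT (2,4-diaminotoluene, an aromatic amine) at 50 µM or MCA (3-methylcholanthrene, a polycyclic aromatic hydrocarbon) at 2 µM, each for 24 h and for 120 h, at concentrations from the literature. In a second approach they received IC20 concentrations, which were AAF 10 µM, BaP 1.5 µM, DAT 700 µM and MCA 20 µM for 24 h, and AAF 10 µM, BaP 0.1 µM, DAT 0.2 µM and MCA 0.1 µM for 120 h. Controls in each approach and at each time received DMSO alone at 0.75%, and every group had 3 arrays numbered 1 to 3. Cells were seeded sparsely and treated before they were confluent, and cell number at harvest was not used here. The labels speak of triplicates without saying whether these were separate cultures, so all p-values measure the spread between arrays, which may be technical.

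DNA replication in mammalian cells starts with licensing, in which the origin recognition complex, Cdc6 and Cdt1 load the ring of Mcm2 to Mcm7 onto DNA in G1 phase. Kinases of S phase, among them cyclin E with its partner kinase, then turn the loaded ring into the active CMG helicase with Cdc45 and the GINS complex, and primase and the replicative polymerases copy the strands behind it on the sliding clamp Pcna. Many of these genes are transcribed under E2F factors, whose activity is high in cycling cells and low in fibroblasts that stop dividing when crowded.

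Promoter sequence was searched because the genes moved together over time in the controls. RefSeq windows of 300 bases, from 250 bases before to 50 bases after a start site on GRCm38.p6, were held for 34 of the 42 genes chosen. Chaf1a, which was not tested on the arrays, is among these 34 and had no E2F-type match. An E2F-type site was searched as the letters TTTGGCGC, TTTCGCGC, TTTCCCGC or TTTGCCGC on both strands, and overlapping matches on opposite strands were counted separately. It occurred in 13 of the 34 genes (38.2%) and in 2.6% of all 27025 genes with a window. The letters CCAAT, also searched on both strands, occurred in 58.8% against 41.1% of genes, and TTTGAA, searched likewise, in 8.82% against 20.2%. The 13 genes were Cdc6, Cdt1, Lig1, Mcm3, Mcm5, Mcm6, Mcm7, Orc1, Pola1, Pold1, Pole2, Rfc3 and Uhrf1, with 19 matches in all, 11 of them within 100 bases of the start site. The windows printed are those of Cdc6, which fell most over time in the controls of both approaches, Mcm5, Mcm6 and Rfc3, which hold several matches, and Rfc1, which fell least. Tk1 and Rrm2, with time differences of -2.81 and -2.54 log2 units in approach 1 controls, had no E2F-type match. Mcm5, with 2 matches, stood at -2.59 and Mcm6, with 3, at -1.58. Whether matches go with the size of the fall was not tested. Capitals mark the matches, and each window is printed 5′ to 3′ on the strand of its gene.
Cdc6 (chr11:98907901-98908200, plus strand): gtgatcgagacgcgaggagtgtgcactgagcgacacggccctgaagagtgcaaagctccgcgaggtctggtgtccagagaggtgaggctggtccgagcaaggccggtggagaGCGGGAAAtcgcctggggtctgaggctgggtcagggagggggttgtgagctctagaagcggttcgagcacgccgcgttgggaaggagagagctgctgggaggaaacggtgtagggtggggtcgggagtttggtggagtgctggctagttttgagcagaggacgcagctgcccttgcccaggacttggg
Mcm5 (chr8:75109259-75109558, plus strand): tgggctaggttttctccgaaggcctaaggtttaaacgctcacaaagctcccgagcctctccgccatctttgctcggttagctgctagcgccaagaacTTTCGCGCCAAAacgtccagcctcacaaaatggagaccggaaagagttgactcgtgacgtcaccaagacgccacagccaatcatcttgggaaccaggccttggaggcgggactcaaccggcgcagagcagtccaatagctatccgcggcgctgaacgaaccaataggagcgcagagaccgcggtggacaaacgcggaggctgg
Mcm6 (chr1:128359656-128359955, minus strand): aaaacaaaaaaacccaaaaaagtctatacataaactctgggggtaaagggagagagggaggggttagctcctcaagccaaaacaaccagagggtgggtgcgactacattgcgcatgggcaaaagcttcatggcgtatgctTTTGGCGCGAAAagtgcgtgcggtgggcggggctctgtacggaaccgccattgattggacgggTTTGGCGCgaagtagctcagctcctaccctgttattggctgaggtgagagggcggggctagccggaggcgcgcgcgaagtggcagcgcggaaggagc
Rfc3 (chr5:151651159-151651458, minus strand): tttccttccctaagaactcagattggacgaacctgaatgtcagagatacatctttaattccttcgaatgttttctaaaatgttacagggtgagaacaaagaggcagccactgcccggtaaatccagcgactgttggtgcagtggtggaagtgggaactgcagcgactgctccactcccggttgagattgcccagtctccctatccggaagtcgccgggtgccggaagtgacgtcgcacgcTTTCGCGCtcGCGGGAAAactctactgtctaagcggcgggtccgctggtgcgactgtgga
Rfc1 (chr5:65335590-65335889, minus strand): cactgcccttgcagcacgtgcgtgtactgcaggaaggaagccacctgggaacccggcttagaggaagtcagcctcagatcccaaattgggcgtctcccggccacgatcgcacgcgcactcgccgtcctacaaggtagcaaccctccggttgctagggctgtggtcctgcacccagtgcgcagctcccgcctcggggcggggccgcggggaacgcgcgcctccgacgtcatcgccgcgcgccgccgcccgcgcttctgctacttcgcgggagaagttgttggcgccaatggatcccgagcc
In Mcm5 the capitals hold overlapping matches on opposite strands, and the upstream capitals of Mcm6 do so too. The Rfc1 window holds no E2F-type match, though it holds CCAAT 2 times when both strands are counted. A match describes these letters in this window and nothing about the binding of a factor.

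The deposited intensities set the precision of what follows. The mean after trimming 2% at each end was 500.00 on all arrays of approach 2 and 152.90 to 187.56 in approach 1, so levels are not compared between the approaches, nor between probe sets. Intensities given here are normalised within an approach, and differences are on the scale of log2(intensity + 16), which understates the change of dim genes. A gene is called when limma's Benjamini-Hochberg adjusted p over all 12650 genes is under 0.05. The median spread between arrays of a group was an SD of 0.115 log2 units in approach 1 and 0.218 in approach 2, and for the 41 genes 0.119 and 0.173. Fibroblast markers were above the array median on all 60 arrays for 9 of 9 genes, among them Col1a1, Col3a1 and Vim. Endothelial markers were tested for 0 of 5 genes, and the epithelial marker Krt18 and the leukocyte marker Ptprc lay above the median on 0 arrays, while the epithelial marker Epcam did so on 53 arrays and the macrophage marker Csf1r on 59.

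In the solvent controls all 41 genes fell from 24 h to 120 h in both approaches. The median log2 difference was -1.90 in approach 1, with a range from -2.94 for Cdc6 to -0.30 for Rfc1, and -1.64 in approach 2, from -2.70 for Cdc6 to -0.56 for Rfc1. Over all genes tested the median was 0.00 and -0.05, and 28.5% and 22.4% of all genes were called lower. For each of the 41 genes every 120 h control array read below every 24 h control array, in both approaches. The share of all genes tested that separated in this way was not counted. The median over the 41 genes of the difference from the 24 h control mean was -1.95, -1.91 and -1.88 on the 120 h control arrays numbered 1 to 3 of approach 1, and -1.91, -1.70 and -1.38 on those of approach 2. Approach 2 controls were thus more spread out at 120 h than approach 1 controls.

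The cycling markers Mki67 and Top2a moved the same way. Their summed deposited intensity was 4487 to 5039 at 24 h and 939.8 to 1026 at 120 h in approach 1, and 15479.8 to 17800.1 and 4823 to 5647 in approach 2. Summed fibroblast markers were 37309 to 39234 and 49332 to 53389 in approach 1, without overlap, and 107768 to 145047 and 127890.0 to 168718 in approach 2, with overlap. The 6 epithelial markers summed to 192 to 256 and 297 to 309.5 in approach 1, and 123 to 203 and 299 to 344 in approach 2, higher at 120 h without overlap, with Krt18, Krt19 and Cldn4 above the array median on 0 arrays. The endothelial markers summed to 46.3 to 63.1 and 63.8 to 72.9 in approach 1, higher at 120 h without overlap, and overlapped in approach 2. In these bulk samples fewer replicating cells and less RNA per cell cannot be told apart. The log2 ratio of 3′ to 5′ actin probe sets, a sign of RNA integrity, was 0.29 ± 0.04 (SD, n = 3) at 24 h and 0.31 ± 0.02 at 120 h in approach 1. In approach 2 it was 0.29 ± 0.07 and 0.54 ± 0.12, higher at 120 h without overlap. The same ratio for Gapdh was -0.28 ± 0.03 and -0.18 ± 0.02 in approach 1, higher at 120 h, and -0.32 ± 0.04 and -0.46 ± 0.08 in approach 2, lower at 120 h, both without overlap. The part of these in the time difference was not tested. The plot of array medians shows the controls beside the treated arrays.

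**Figure D1:**
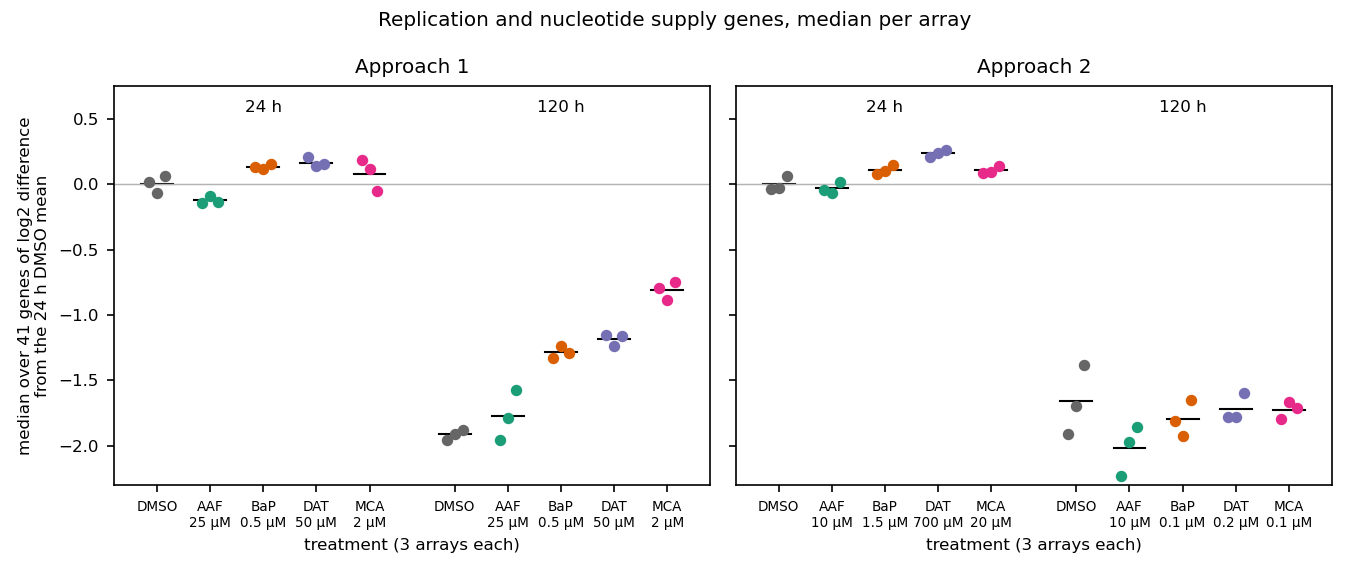
Each point is 1 array and gives the median, over the 41 genes, of the log2 difference from the mean of the 24 h DMSO arrays of the same approach; short bars are group means of 3 arrays. In approach 1 the 120 h MCA arrays sit between -0.88 and -0.75 and the 120 h DMSO arrays between -1.95 and -1.88, whereas in approach 2 all 120 h groups lie at -1.38 or below.

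Among the 11 origin licensing genes the median difference was -2.21 and -1.78 log2 units. Cdc6, the ATPase that helps load the Mcm ring, read 348, 369 and 435 on the 24 h controls and 28.8, 33.7 and 47.2 on the 120 h controls of approach 1. Its approach 2 readings were 1353, 1507 and 1635 and then 169, 195 and 307. Its highest 120 h array stayed far under its lowest 24 h array each time, and it fell by 2.94 (SE 0.152) and 2.70 (SE 0.205) log2 units, with limma adjusted p of 2.19e-15 and 9.09e-11. Gmnn, which encodes geminin, the inhibitor of Cdt1, fell by 2.86 and 2.57, and its target Cdt1 by 2.21 and 1.65. The helicase ring fell as a whole, from 1.40 for Mcm7 to 2.59 for Mcm5 in approach 1, and from 1.15 for Mcm7 to 1.89 for Mcm5 in approach 2. Orc6, a small subunit of the origin recognition complex, read 604, 577 and 592 and then 285, 279 and 257 in approach 1, the smallest fall of the group at 1.07, and fell by 1.02 in approach 2. Orc1, the ATPase subunit of that complex, fell by 2.28 and 1.92.

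The 4 helicase activation genes fell by 2.14 to 2.29 log2 units in approach 1 and by 1.86 to 2.44 in approach 2. Mcm10, which is needed for the helicase to start moving, read 340.0, 334 and 350.2 at 24 h and 57.4, 60.0 and 67.1 at 120 h in approach 1, and 1298, 1285 and 1315 and 257, 325 and 367 in approach 2. It fell by 2.21 and 2.00. Gins2, a subunit of the GINS complex, read 456, 459 and 510.1 and then 79.0, 86.8 and 87.5 in approach 1. Neither gene had overlapping groups, and Gins2 fell by 2.29 and 1.89. The cyclins E, which drive entry into S phase, fell alike. Ccne2 read 237, 275 and 266 and then 40.2, 36.0 and 49.7 in approach 1 and fell by 2.25 and 1.97. Ccne1 read 340.2, 373 and 366 and then 80.9, 98.1 and 111 and fell by 1.74 and 2.03. Both kept their 120 h arrays under all 24 h arrays.

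Primase and polymerase genes fell by 1.25 (Prim1, the catalytic primase subunit) to 2.54 log2 units (Pole) in approach 1, with a median of -1.61. Pole, the catalytic subunit of the leading strand polymerase, read 713, 604 and 659 at 24 h and 92.5, 99.4 and 108 at 120 h in approach 1, and 2271, 2100.4 and 2099 and 476, 593 and 698 in approach 2, where it fell by 1.86. Prim2, the large primase subunit, read 390.4, 392 and 442 and then 122, 149 and 137 in approach 1. Its groups did not overlap, and it fell by 1.48 and 1.32. Pold1, the catalytic subunit of the lagging strand polymerase, fell by 1.61 and 1.38, and Pola1, the catalytic subunit of the polymerase that extends primers, by 2.21 and 1.82.

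The clamp and its loader were less uniform. Pcna, the sliding clamp, fell by 1.50 and 1.18 log2 units, and the small loader subunits Rfc2 to Rfc5 by 1.13 to 2.02 in approach 1 and 1.19 to 1.62 in approach 2. Rfc4 read 690.2, 695 and 716 at 24 h and 150.3, 168 and 163 at 120 h in approach 1, and 2239, 2286 and 2235 and 583, 779 and 951 in approach 2. Rfc1, the large subunit, read 596, 547 and 521 and then 445, 502 and 399.6 in approach 1, and 2144, 2116 and 2269 and 1490.5, 1327 and 1617 in approach 2. Both had separate groups, but the gap of Rfc1 was small, and it fell by 0.30 (95% interval -0.49 to -0.11, limma adjusted p = 0.00623) and 0.56 (-0.73 to -0.38, limma adjusted p = 6.91e-06), less than any other of the 41 genes in either approach. Without DMSO array 3 of 120 h the approach 1 call was lost, at -0.22 (limma adjusted p = 0.0594).

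Single-strand binding and Okazaki fragment genes fell too. Rpa2, a subunit of replication protein A, read 396, 358 and 430.1 at 24 h and 80.1, 87.6 and 95.2 at 120 h in approach 1 and fell by 1.99 and 1.89 log2 units. Rpa1, its large subunit, read 2333, 2377 and 2794 and then 1086, 1070.5 and 1144 and fell by 1.17 and 1.03. The 120 h arrays of both were under all 24 h arrays. Lig1, the ligase that joins Okazaki fragments, read 1049, 972 and 1079 and then 266, 266 and 281 and fell by 1.87 and 1.55. Fen1, the nuclease that trims their flaps, read 1022, 851 and 985 and then 439.5, 367 and 413 and fell by 1.20 and 1.20. Neither gene overlapped between the times.

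In nucleotide supply, Tk1, the thymidine kinase of S phase, read 957, 844 and 957 at 24 h and 112, 120.1 and 120.2 at 120 h in approach 1, and 3422, 3186 and 4013 and 431, 526 and 765 in approach 2. It fell by 2.81 and 2.62 log2 units, behind Cdc6 and Gmnn in approach 1 and behind Cdc6 in approach 2. Rrm2, the small subunit of ribonucleotide reductase, fell by 2.54 and 2.06, and its partner Rrm1 by 1.81 and 1.64. Dut, which removes dUTP, fell by 2.03 and 1.88. Tyms, thymidylate synthase, read 102, 72.3 and 89.1 and then 26.9, 27.8 and 21.5 in approach 1, close to the floor of the scale at 120 h, and fell by 1.32 and 1.01. Of the chromatin genes, Uhrf1, which guides DNA methylation behind the fork, read 470.0, 512 and 444 and then 82.5, 87.2 and 85.3 and fell by 2.28 and 1.41. Chaf1b, a subunit of the histone chaperone CAF-1, read 472, 359 and 415 and then 121, 128 and 109 and fell by 1.67 and 1.30. No 120 h array of these genes reached a 24 h array.

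Other genes of the pathway were counted in the same fits, 53 of 55 listed. In approach 1, 46 fell and 4 rose, with a median of -0.96, and in approach 2, 43 fell and 2 rose, with a median of -1.03. The fork protector Clspn fell by 2.38 and 2.04 log2 units, and the maintenance methyltransferase Dnmt1 by 1.65 and 1.57. Among those that rose were Rrm2b, the reductase subunit known from resting cells, by 0.56 and 0.44, and Pold4, a small polymerase subunit, by 0.19 and 0.43. The mitochondrial thymidine kinase Tk2 rose by 0.59 in approach 1, and its difference in approach 2 was 0.45 (95% interval 0.05 to 0.85, limma adjusted p = 0.0710). Orc3, Orc4 and Orc5 fell by 0.30, 0.16 and 0.18 in approach 1, and in approach 2 their differences were -0.22, -0.19 and -0.17 and were not called.

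**Figure D2:**
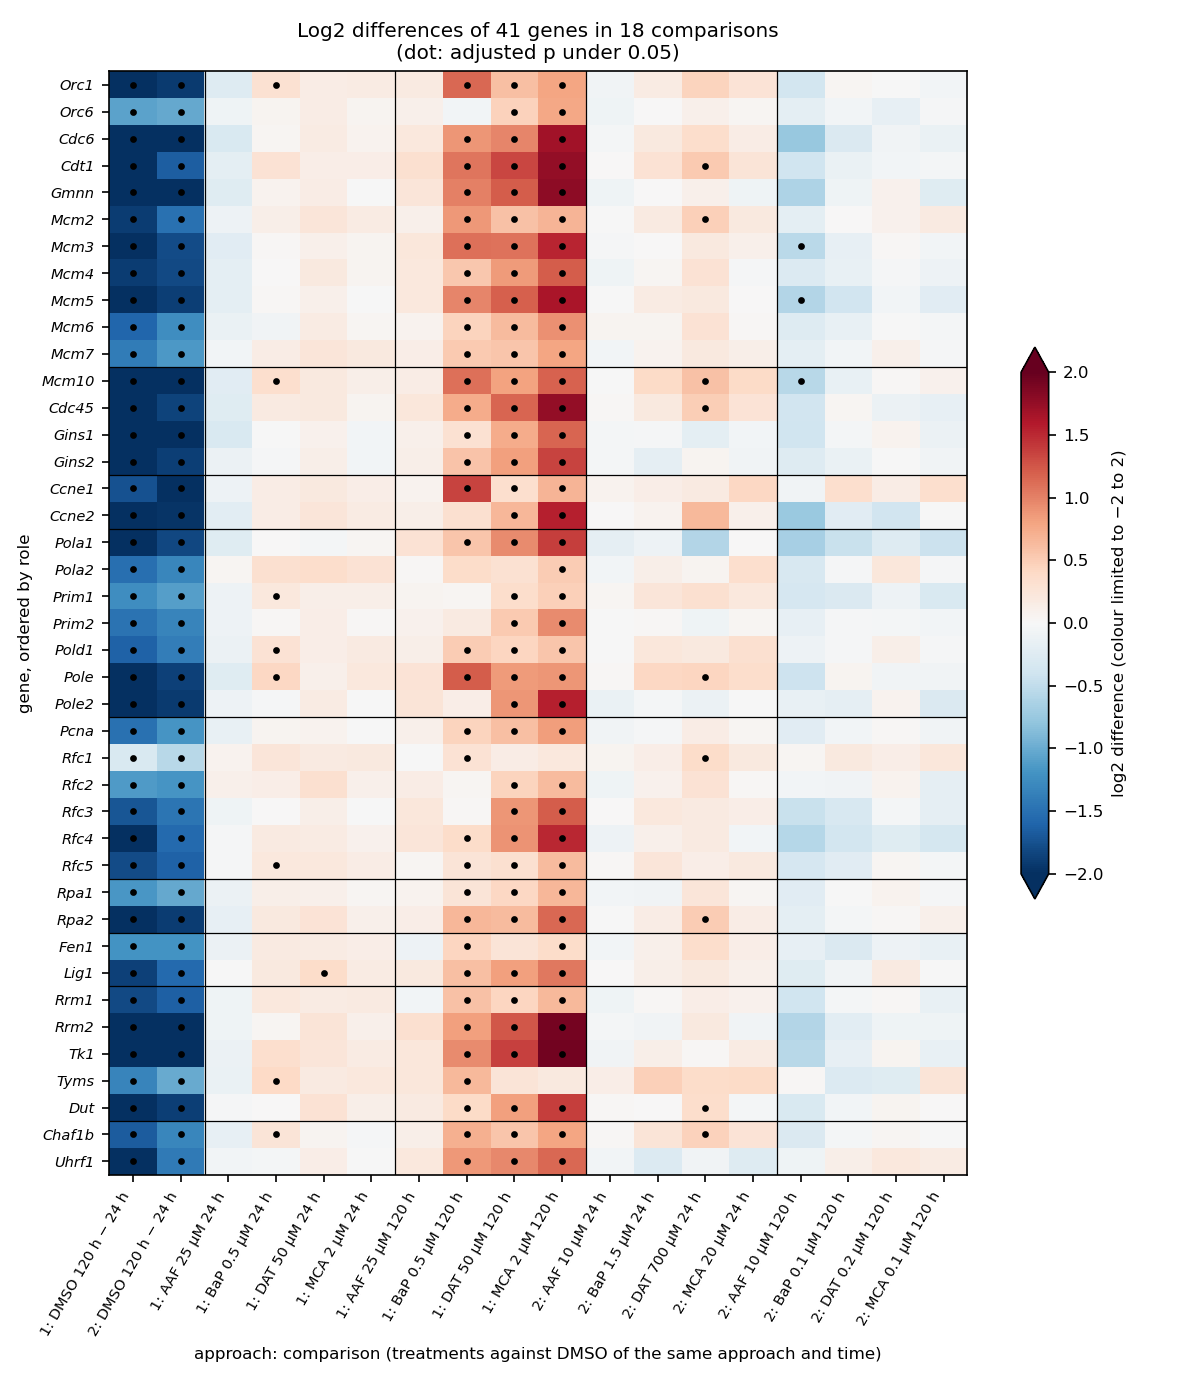
Rows are the 41 genes ordered by role, and columns are the control time difference of each approach and the 16 treatments, each against DMSO of the same approach and time. Colour is the log2 difference, limited to -2 to 2, and a dot marks an adjusted p under 0.05; dots fill both time columns, and lie thickest among treatments in BaP, DAT and MCA at 120 h of approach 1.

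At 120 h in approach 1, replication genes were higher under BaP, DAT and MCA than in DMSO. Under MCA at 2 µM 39 of the 41 rose, with a median log2 difference of 1.06 and a highest value of 1.93 for Tk1. Under DAT at 50 µM 37 rose, with a median of 0.66 and 1.37 for Tk1 as the highest. Under BaP at 0.5 µM 33 rose, with a median of 0.56 and 1.35 for Ccne1 as the highest. Of all genes tested, 18.8%, 11.7% and 13.8% were called higher, and the median over all genes was -0.02, -0.02 and -0.01. The 3 comparisons share their DMSO arrays, and the concentrations differ between chemicals, so their values stand side by side and are not compared. Under AAF at 25 µM limma called 0 of the 41, with a median of 0.14.

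The array medians over the 41 genes, as differences from the 24 h controls, were -0.80, -0.88 and -0.75 under MCA, -1.15, -1.24 and -1.16 under DAT and -1.33, -1.24 and -1.29 under BaP. All of these lay above the 120 h DMSO arrays and below the 24 h DMSO arrays. The AAF arrays lay at -1.96, -1.79 and -1.58, 1 of them level with the DMSO arrays and the others above. The summed intensity of Mki67 and Top2a was 2167 to 2269 under MCA, 1642 to 2315 under DAT and 2400.4 to 2643 under BaP, against 939.8 to 1026 in DMSO. Summed fibroblast markers were 43161 to 45067, 43829 to 51028 and 39692 to 42794, against 49332 to 53389, lower without overlap under MCA and BaP. Summed epithelial markers were 264 to 298, 248 to 338 and 236 to 283, against 297 to 309.5, lower without overlap under BaP. The actin 3′ to 5′ log2 ratio was 0.30 ± 0.03, 0.33 ± 0.03 and 0.44 ± 0.06 (SD, n = 3) against 0.31 ± 0.02 in DMSO, and its arrays lay above those of DMSO under BaP and overlapped them under MCA and DAT. The part of these in the results was not tested.

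Origin licensing genes rose under all 3 chemicals with few gaps, 11 of 11 under MCA (median 1.20), 11 of 11 under DAT (0.85) and 10 of 11 under BaP (0.88). Cdc6 read 152, 137 and 167 under MCA, 84.8, 73.7 and 102 under DAT and 73.7, 87.2 and 79.6 under BaP, beside 28.8, 33.7 and 47.2 in DMSO. Every treated array of it was above every DMSO array, and it rose by 1.69 (SE 0.152), 0.97 and 0.88 log2 units. Geminin's gene Gmnn rose by 1.79 under MCA and 1.21 under DAT and was called higher under BaP too, and Cdt1 by 1.75, 1.33 and 1.08. In the helicase ring, Mcm5 rose by 1.63, 1.19 and 0.98, and Mcm7 by 0.79, 0.55 and 0.52. Orc6 read 489, 500.4 and 447 under MCA, 414, 389 and 347 under DAT and 242, 299 and 254 under BaP, beside 285, 279 and 257 in DMSO. It rose by 0.77 and 0.46 under MCA and DAT, and its BaP arrays overlapped DMSO with a difference of -0.05 (95% interval -0.21 to 0.11). Its partner Orc1 rose by 0.80 under MCA, 0.60 under DAT and 1.15 under BaP.

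All 4 helicase activation genes rose under each of the 3 chemicals. Mcm10 read 163, 157 and 159 under MCA, 125, 106 and 125 under DAT and 122, 156 and 177 under BaP, beside 57.4, 60.0 and 67.1 in DMSO. Gins2 read 229.8, 242 and 246, 157, 169 and 159 and 118, 153 and 132, beside 79.0, 86.8 and 87.5. Neither gene had a treated array as low as a DMSO array. Mcm10 rose by 1.18, 0.80 and 1.10 log2 units and Gins2 by 1.35, 0.82 and 0.58. Cdc45, the helicase cofactor, rose by 1.76, 1.16 and 0.74. The BaP call of Gins1, 0.31, was lost without BaP array 2 or DMSO array 2, at 0.25 to 0.30 (limma adjusted p from 0.0518 to 0.102).

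The cyclins E are given side by side under the chemicals, whose concentrations differ. Ccne1 read 256, 289 and 264 under BaP, 115, 106 and 164 under DAT and 149.8, 154 and 191 under MCA, beside 80.9, 98.1 and 111 in DMSO. It rose by 1.35 (SE 0.112, limma adjusted p = 3.34e-10), 0.34 and 0.68 log2 units. The DAT call was lost without DAT array 3, at 0.17 (limma adjusted p = 0.252), and without DMSO array 1, at 0.24 (limma adjusted p = 0.170), and in 4 of 8 other settings. Ccne2 read 51.0, 61.5 and 56.1 under BaP, 83.2, 63.4 and 80.8 under DAT and 164, 143 and 154 under MCA, beside 40.2, 36.0 and 49.7 in DMSO. Ccne2 rose by 1.55 under MCA and 0.66 under DAT, with an uncalled 0.32 under BaP (95% interval 0.03 to 0.61, limma adjusted p = 0.0940). With the replicate number as a block, which pairs the arrays in that comparison, the BaP difference of Ccne2 was called. Ccne1 was thus the largest BaP difference of the 41 genes, and Ccne2 lay among the 8 not called under BaP.

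Among primase and polymerase genes, 7 of 7 rose under MCA, 6 of 7 under DAT and 3 of 7 under BaP. Pole read 263, 251 and 245 under BaP, 203, 187 and 191 under DAT and 191, 186 and 216 under MCA, beside 92.5, 99.4 and 108 in DMSO, and rose by 1.22, 0.85 and 0.88 log2 units. Prim2 read 138, 174 and 157, 198, 192 and 214 and 274, 275 and 277, beside 122, 149 and 137. It rose by 0.94 under MCA and 0.52 under DAT, and its BaP difference was 0.18 (95% interval 0.00 to 0.35). Pole2, the second subunit of Pole's enzyme, rose by 1.55 under MCA and 0.89 under DAT, with 0.13 (-0.10 to 0.36) under BaP. Prim1 stood at 0.05 (-0.08 to 0.17) under BaP, and rose by 0.35 under DAT and 0.48 under MCA. Pola2 rose under MCA by 0.51, with 0.36 under BaP, called in the paired block fit, and 0.31 under DAT, neither called without the block. Its MCA call was lost without MCA array 1 or 2 or DMSO array 3, at 0.43 to 0.46 (limma adjusted p from 0.0515 to 0.0664).

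The clamp Pcna rose by 0.83 under MCA, 0.60 under DAT and 0.45 under BaP. Of the 5 loader genes, Rfc4 read 494, 488 and 474 under MCA, 314, 299 and 331 under DAT and 193, 236 and 211 under BaP, beside 150.3, 168 and 163 in DMSO. It rose by 1.51, 0.90 and 0.37 log2 units. Rfc3 rose by 1.21 and 0.88 under MCA and DAT, and its BaP difference was 0.02 (95% interval -0.21 to 0.25). Rfc2 rose by 0.63 and 0.44, with 0.03 (-0.13 to 0.19) under BaP. Rfc1 read 575, 599.9 and 479.7 under BaP, 562, 484 and 447 under DAT and 547, 544 and 474 under MCA, beside 445, 502 and 399.6 in DMSO. It rose under BaP by 0.29 (limma adjusted p = 0.0191), and 0.14 under DAT and 0.21 under MCA were not called, the latter called with the replicate block, which pairs that comparison. The BaP call of Rfc1 was lost without BaP array 1 or 2 or DMSO array 1 or 3, with differences of 0.21 to 0.28 (limma adjusted p from 0.0509 to 0.133), and in a fit of only the groups compared.

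Rpa1, Rpa2 and Lig1 rose under all 3 chemicals, and Fen1 under MCA and BaP. Rpa2 read 210.5, 201 and 229.6 under MCA, 149, 130.4 and 157 under DAT and 137, 154 and 153 under BaP, beside 80.1, 87.6 and 95.2 in DMSO, and rose by 1.15, 0.64 and 0.67 log2 units. Rpa1 rose by 0.67, 0.42 and 0.25. Lig1 read 596, 563 and 582, 506, 474 and 498 and 436, 429 and 397, beside 266, 266 and 281, and rose by 1.06, 0.83 and 0.61. Fen1 rose by 0.37 under MCA and 0.43 under BaP, with 0.25 (95% interval 0.05 to 0.45) under DAT.

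Nucleotide supply genes differed widely in the size of the response. Tk1 read 496, 490.0 and 492 under MCA, 326, 331 and 328 under DAT and 217, 256 and 254 under BaP, beside 112, 120.1 and 120.2 in DMSO. No treated array of Tk1 came near a DMSO array, and it rose 3.81-fold, 2.58-fold and 1.93-fold, that is by 1.93 (SE 0.115), 1.37 and 0.95 log2 units. Rrm2 rose by 1.91, 1.24 and 0.82, and Rrm1 by 0.64, 0.43 and 0.58. Tyms read 28.8, 30.9 and 34.7 under MCA, 40.3, 25.0 and 35.8 under DAT and 49.0, 47.4 and 49.1 under BaP, beside 26.9, 27.8 and 21.5 in DMSO. Its BaP arrays rose by 0.64, and its differences of 0.20 (95% interval -0.05 to 0.45) under MCA and 0.25 under DAT were not called. Uhrf1 read 220.0, 192 and 209, 179, 167 and 200.1 and 210.4, 165 and 136, beside 82.5, 87.2 and 85.3, and rose by 1.14, 0.97 and 0.87. Chaf1b rose by 0.79, 0.55 and 0.72.

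**Figure D3:**
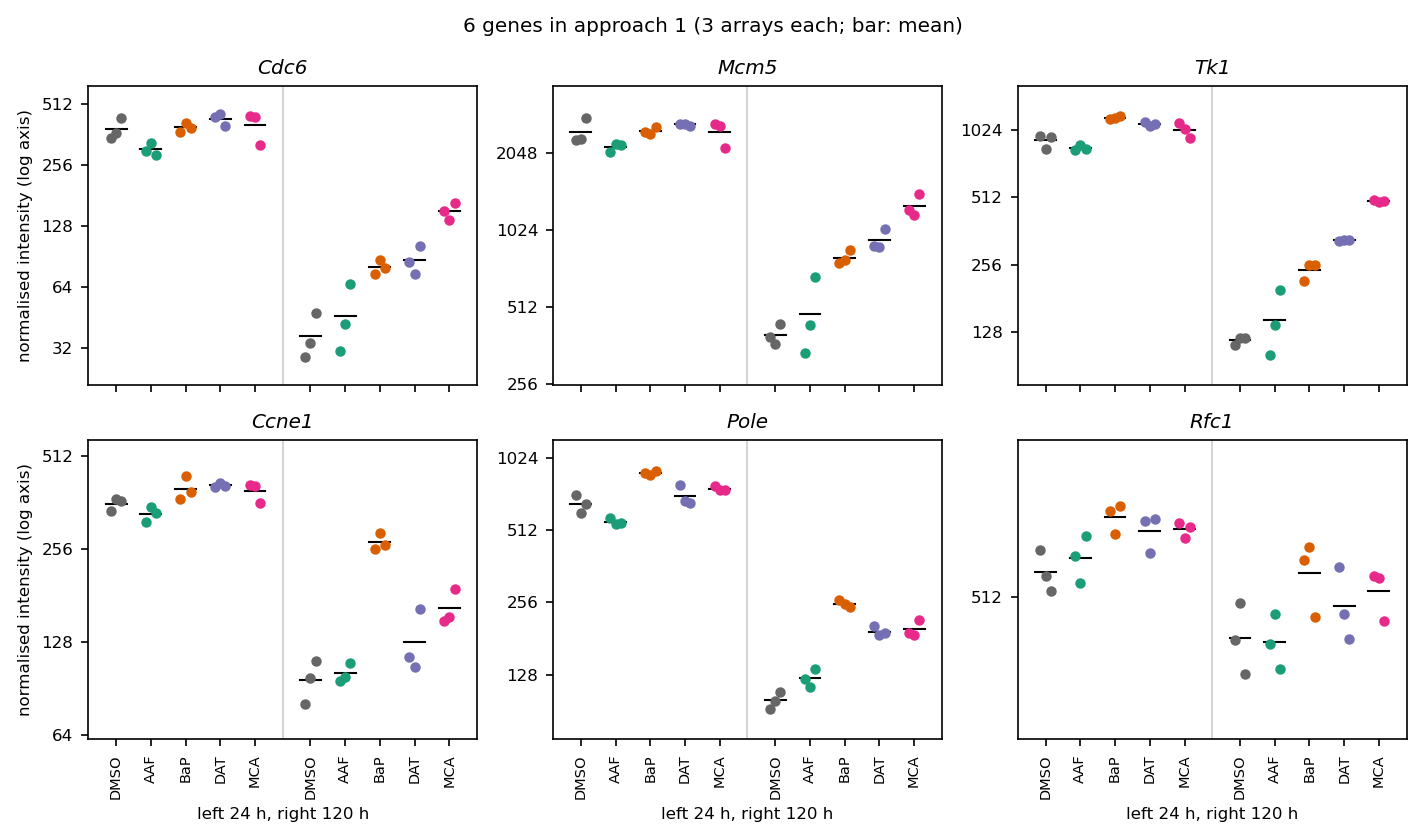
Normalised intensity of 6 genes on the 30 arrays of approach 1, on a log axis, with 24 h groups left and 120 h groups right of the grey line; points are arrays and bars are group means. Cdc6, Mcm5 and Tk1 stand highest at 120 h under MCA, Ccne1 and Pole under BaP, and the Rfc1 groups lie close together at both times. Concentrations differ between the chemicals, which were not tested against each other here.

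Other pathway genes moved in the same comparisons, 37 higher and 2 lower of 53 under MCA (median 0.47), 28 higher under DAT (0.27) and 28 higher and 1 lower under BaP (0.25). Asf1b, a histone chaperone, rose by 1.62, 1.01 and 0.65 log2 units, and Clspn by 1.24, 0.79 and 1.27. Dck, the salvage kinase for deoxycytidine, rose by 1.43, 0.57 and 0.69. Cad, which opens pyrimidine synthesis, fell by 0.23 under MCA and rose by 0.42 under BaP.

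Under AAF at 25 µM for 120 h, limma called 0 of the 41 genes, and 11 had an unadjusted p under 0.05. Of all genes tested, 0.356% were called. The differences ran from -0.10 to 0.32, with 38 of 41 above 0, and the lowest adjusted p was 0.134. Tk1 read 101, 138 and 197 under AAF and 112, 120.1 and 120.2 in DMSO, and Cdc6 30.9, 41.8 and 65.7 and 28.8, 33.7 and 47.2. Array 1 lay level with or under DMSO and array 3 above it for both genes, and their differences were 0.23 (95% interval -0.01 to 0.46) and 0.22 (-0.09 to 0.53). With the replicate number as a block, which pairs the arrays here, 1 gene (Pole) was called, and without AAF array 1 there were 6. Mki67 and Top2a summed to 1086 to 1255, and the actin 3′ to 5′ log2 ratio was 0.37 ± 0.03, both above DMSO without overlap.

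At 24 h in approach 1 few replication genes differed from DMSO. Under BaP at 0.5 µM 8 of 41 rose, which were Orc1, Mcm10, Prim1, Pold1, Pole, Rfc5, Tyms and Chaf1b, and 4.51% of all genes were called higher. The median over the 41 was 0.14, against 0.00 over all genes. Pole read 879.7, 865 and 898 under BaP and 713, 604 and 659 in DMSO, without overlap, and rose by 0.41 (SE 0.0719, limma adjusted p = 2.29e-04). Tyms read 113, 125 and 122 and 102, 72.3 and 89.1 and rose by 0.40, and Mcm10 read 442, 415 and 453 and 340.0, 334 and 350.2 and rose by 0.34. The Tyms call was lost in 7 of 8 other settings and without any 1 of 5 of the 6 arrays, at 0.29 (limma adjusted p = 0.220) without DMSO array 2 and 0.09 (limma adjusted p = 0.525) with the mean of its probe sets. The Mcm10 call was lost without any 1 of 3 arrays. Mki67 and Top2a summed to 5419 to 5965 under BaP and 4487 to 5039 in DMSO, and fibroblast markers to 35035 to 36271 and 37309 to 39234, neither with overlap, and their part was not tested. With the replicate number as a block, which pairs the arrays, 14 genes were called higher, and the share of all genes in that fit is not given here. Without 1 array the count was 1 to 7. It was 1 without DMSO array 2, 4 without DMSO array 3, and 2, 4 and 2 without BaP arrays 1, 2 and 3.

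Under DAT at 50 µM 1 of 41 rose at 24 h, Lig1, which read 1362, 1281 and 1354 under DAT and 1049, 972 and 1079 in DMSO and rose by 0.36 (limma adjusted p = 0.0137), while 0.0949% of all genes were called higher and 11 of the 41 had an unadjusted p under 0.05. The median over the 41 was 0.16, and 40 of 41 differences were above 0. The paired block fit called 6, namely Lig1, Mcm2, Mcm7, Pola2, Rfc2 and Rfc5, and without DAT array 1, DAT array 3 or DMSO array 2 the count was 0. MCA at 2 µM called 0 of 41 in limma, with 8 at an unadjusted p under 0.05, 2.21% of all genes called and a median of 0.10, and without MCA array 3 it called 1. Mki67 and Top2a summed to 5437 to 6148 under MCA, above DMSO without overlap. AAF at 25 µM called 0 of 41, with 9 at an unadjusted p under 0.05, 0.909% of all genes called and a median of -0.12, and 38 of 41 differences lay below 0. Its paired block fit called 1, Pole, lower at -0.24. Cdc6 had the lowest AAF value at -0.31 (95% interval -0.62 to 0.00), and its AAF arrays read 299.9, 331 and 286 beside 348, 369 and 435 in DMSO. These were all below the DMSO arrays, though not called.

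Whether the response differed between 120 h and 24 h was tested directly where the concentration was the same. In approach 1 the response of 37 of 41 genes was higher at 120 h under MCA (median difference of responses 0.92), of 26 under DAT (0.51) and of 22 under BaP (0.42). Of all genes tested, 14.8%, 4.90% and 4.99% were called higher, with medians of -0.01, -0.02 and -0.01. Rrm2 stood at 0.10 at 24 h and 1.91 at 120 h under MCA, and the difference of 1.81 (SE 0.210) was the largest of the 41. Cdt1 stood at 0.14 and 1.33 under DAT, a difference of 1.19, and Ccne1 at 0.15 and 1.35 under BaP, a difference of 1.19. Those were the largest of their chemicals. Rfc1 gave 0.02, -0.04 and 0.04 under MCA, DAT and BaP, none of them called, with intervals of -0.25 to 0.28, -0.31 to 0.22 and -0.23 to 0.30. Pola2 gave 0.22, -0.04 and 0.04, also uncalled.

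Under AAF the same test called 0 of 41 in limma in each approach, with 21 and 13 genes at an unadjusted p under 0.05. In approach 1 the median was 0.27, the lowest limma adjusted p was 0.0523 and 0.0553% of all genes were called. The block fit called 2 (Pola1 and Pole). The fit without the block called 6 when AAF array 1 of 120 h was left out. It called 1 without AAF array 2 of 120 h, DMSO array 2 of 24 h or DMSO array 3 of 120 h. In approach 2 the median was -0.30, the lowest adjusted p was 0.276 and 0% of all genes were called. The block fit there called 7 lower, which were Ccne2, Cdt1, Mcm3, Mcm5, Mcm10, Rfc3 and Rrm2. Pairing was checked at each time and not for these differences between the times.

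**Figure D4:**
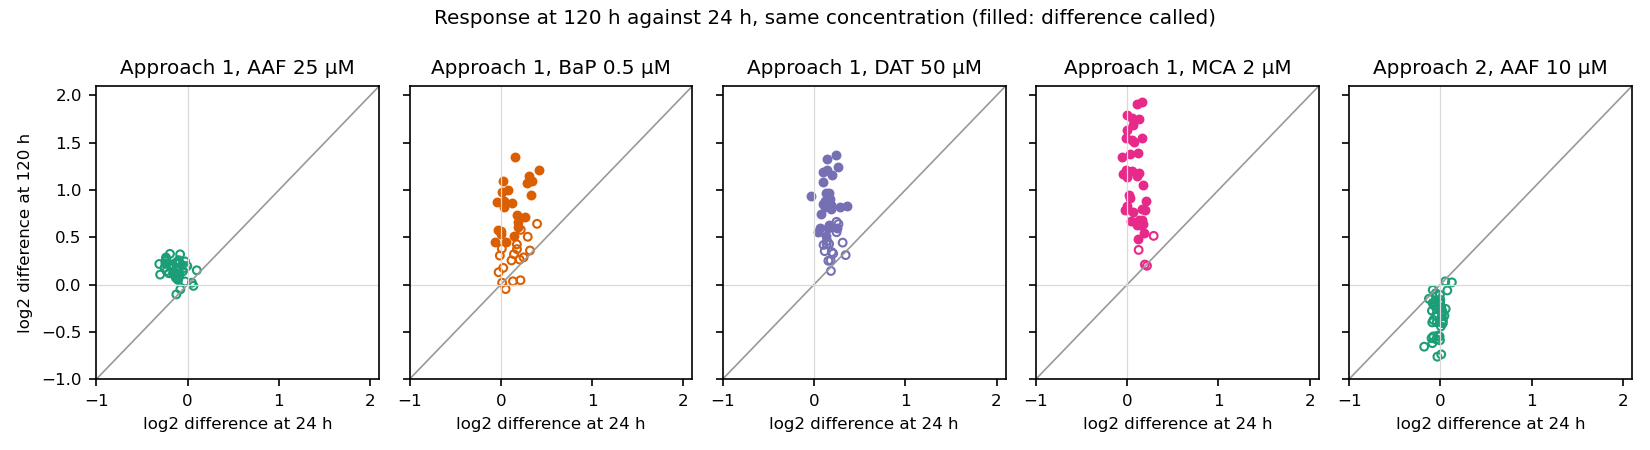
Each point is 1 of the 41 genes, with the log2 difference from DMSO at 24 h on the x axis and at 120 h on the y axis for the chemicals given at 1 concentration at both times; the diagonal marks equal responses and filled points had a called difference between the times. Filled points number 22 for BaP, 26 for DAT and 37 for MCA in approach 1, and there are none for AAF.

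In approach 2 at 24 h, 9 of the 41 genes rose under DAT at 700 µM, which were Cdt1, Mcm2, Mcm10, Cdc45, Pole, Rfc1, Rpa2, Dut and Chaf1b, and 4.17% of all genes were called higher. The median over the 41 was 0.20, against 0.00 over all genes. Mcm10 read 1889, 1986 and 2021 under DAT and 1298, 1285 and 1315 in DMSO, and Rpa2 2171, 2503 and 2458 and 1600.1, 1551 and 1833. Neither overlapped DMSO, and they rose by 0.59 (SE 0.118) and 0.51 (SE 0.154). Chaf1b read 1936, 2058 and 2014 and 1492, 1305 and 1548 and rose by 0.47. Pola1 had the lowest value, -0.58 (95% interval -0.96 to -0.20, limma adjusted p = 0.0501), with arrays at 1711, 1699.7 and 1609 under DAT and 2443, 2709 and 2395 in DMSO. The paired block fit called 20 higher and 1 lower, Pola1, and the share of all genes in that fit is not given here. Without DAT array 2 or DAT array 3 the count was 4, and with arrays centred on their median it was 1 in place of 9. The calls of Rpa2 and Chaf1b were lost without any 1 of 5 and of 3 of the 6 arrays, with differences of 0.47 to 0.58 (limma adjusted p from 0.0517 to 0.144) and 0.39 to 0.46 (limma adjusted p from 0.0598 to 0.118). That of Pole was lost without any 1 of the 6 arrays, at 0.39 to 0.47 (limma adjusted p from 0.0548 to 0.116). Those of Cdc45 and Dut were lost without some single arrays. Summed epithelial markers were 216 to 281 under DAT and 123 to 203 in DMSO, higher without overlap. The actin 3′ to 5′ log2 ratio was 0.38 ± 0.08 under DAT and 0.29 ± 0.07 in DMSO, with overlap. The part of these was not tested.

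The other chemicals of approach 2 called 0 of 41 at 24 h in limma. Under BaP at 1.5 µM the median was 0.10, 5 genes had an unadjusted p under 0.05 and 2.36% of all genes were called, and the paired block fit called 5 higher, namely Cdt1, Mcm10, Pole, Prim1 and Rfc3. Pole read 2857, 3131 and 2638 under BaP and 2271, 2100.4 and 2099 in DMSO, a difference of 0.41 (95% interval 0.15 to 0.67). Under MCA at 20 µM the median was 0.10, 9 genes had an unadjusted p under 0.05 and 1.30% of all genes were called, and the paired block fit called 8 higher, among them Ccne1 at 0.42 and Mcm10 at 0.38. Under AAF at 10 µM the median was -0.03, 0 genes had an unadjusted p under 0.05 and 0.0237% of all genes were called, with a range from -0.18 to 0.13.

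At 120 h in approach 2, 3 of the 41 genes fell under AAF at 10 µM, all named for minichromosome maintenance. Mcm3 read 1395, 1441 and 1588 under AAF and 1939, 2141 and 2382 in DMSO, Mcm5 1582, 1704 and 2006 and 2075, 2711 and 3305, and Mcm10 180.5, 209 and 241 and 257, 325 and 367. For each of them all AAF arrays lay below all DMSO arrays. They fell by 0.54 (SE 0.0761), 0.59 (SE 0.130) and 0.55 (SE 0.118) log2 units, with limma adjusted p of 4.81e-04, 0.0307 and 0.0280. Of all genes tested, 0.372% were called lower. The median over the 41 was -0.30 against 0.01 over all genes, 39 of 41 differences were below 0, and 30 were below 0 in each of the 3 same-numbered pairs. Larger but uncalled values belonged to Cdc6, at -0.76 (95% interval -1.19 to -0.34), and Ccne2, at -0.74 (-1.22 to -0.26).

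The AAF count moved with the choice of fit and array. With the replicate number as a block, which pairs the arrays here, 24 genes were called lower, among them Cdc6, Ccne2, Gmnn, Tk1 and Rrm2. The 0.372% of all genes called lower belongs to the fit without the block, and the share in the block fit is not given here. The count was 0 with a fit of only the groups compared, with arrays centred on their median, where the median over the 41 was -0.20, and with the mean of all probe sets of a gene. It was 1 without AAF array 1, AAF array 2, DMSO array 2 or DMSO array 3, and 9 without AAF array 3 or DMSO array 1. The array medians of the 41 genes were -2.23, -1.97 and -1.86 under AAF and -1.91, -1.70 and -1.38 in DMSO, overlapping between the groups while the AAF array of each number lay below the DMSO array of that number. Mki67 and Top2a summed to 4024 to 4123 under AAF and 4823 to 5647 in DMSO, without overlap. The actin 3′ to 5′ log2 ratio was 0.62 ± 0.20 and 0.54 ± 0.12, and its part was not tested.

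The low concentrations of the other chemicals called 0 of 41 at 120 h in limma. BaP at 0.1 µM had a median of -0.07, 7 genes at an unadjusted p under 0.05 and 1.42% of all genes called, and without DMSO array 1 it called 1 gene lower. MCA at 0.1 µM had a median of -0.05, 5 genes at an unadjusted p under 0.05 and 2.47% of all genes called. The paired block fit for MCA called Pola1, Prim1 and Rfc4 lower, at -0.43, -0.30 and -0.35, and Rfc1 higher, at 0.22. DAT at 0.2 µM had a median of 0.02, 0 genes at an unadjusted p under 0.05 and 0% of all genes called. Tk1, which rose most at the literature concentrations of DAT and MCA, read 440.1, 499.6 and 581 under MCA, 563, 483 and 716 under DAT and 473, 432 and 602 under BaP, beside 431, 526 and 765 in DMSO. These groups overlapped, with differences of -0.14 (95% interval -0.53 to 0.24), 0.05 (-0.33 to 0.44) and -0.16 (-0.54 to 0.22).

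BaP and MCA, of which MCA carries a methyl group that BaP lacks, shared a concentration and time only at 0.1 µM for 120 h, so 1 pair of chemicals was compared. Limma called 0 of the 41 genes between them, with 1 at an unadjusted p under 0.05 and 0.0791% of all genes called. The median of BaP minus MCA was -0.03, against 0.02 over all genes, and values ran from -0.52 for Tyms to 0.19 for Cdc45. Tyms read 89.0, 119 and 130.1 under BaP and 172, 177 and 154 under MCA, with a 95% interval of the difference from -1.03 to -0.01, and was the gene with an unadjusted limma p under 0.05. For Tk1 the interval was -0.40 to 0.37 and for Cdc6 -0.58 to 0.27, which leaves room for differences of that size in either direction.

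The reading of a gene can depend on its probe set. Of the 41 genes, 32 had several probe sets, and 19 had more than 1 above the array median on all 60 arrays, 45 probe sets in all. All 45 were lower at 120 h than at 24 h in the controls of both approaches. Within these 45, probe sets of a gene differed most in their time difference for Fen1 in approach 1, by 0.64 log2 units. In approach 2 they differed most for Mcm4, by 0.85. Gaps were larger among all 90 probe sets of the genes, which include dimmer ones. In approach 1 another Cdc45 probe set stood at -0.69, beside -2.22 for the one used. In approach 2 other probe sets of Uhrf1 and Mcm6 stood at -2.64 and 0.07, beside -1.41 and -1.24. For 7 genes the probe set used carries a suffix that marks probes shared with other transcripts, so part of their signal may come from related sequence.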

How the data were processed

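Per the labels' protocols, total RNA was extracted, converted to biotin-labelled cRNA and hybridised to single-colour GeneChip arrays. The submitters' processing notes name GCOS and give no version. How background, summarization and scaling were handled is not given in the sources used here. Linear intensities were deposited by the authors, 45101 per array for 60 arrays. Probe sets were named through the platform table, with symbols updated by gene identifier; 34958 had 1 symbol, 932 had several and were left out, 9211 were unnamed, and 204 kept an older symbol.

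The 42 genes, the other gene lists, the markers and the tests were chosen with earlier results of these data known. Values of single arrays are given for the genes with the largest and the smallest mean absolute difference in each role, and for others a result turned on. The probe set of a gene with the highest mean stood for it, and the gene was tested if that exceeded the array median on at least 3 arrays. Intensities were quantile normalised within each approach and analysed as log2(intensity + 16) with limma 3.58.1 in R 4.3.3, in a fit of 10 group means per approach with 20 residual degrees of freedom, a mean-variance trend, two-sided moderated tests and Benjamini-Hochberg adjustment over 12650 genes within each of 24 comparisons. The approaches were fitted separately because their scaling and spread differ. Printed intensities are normalised values, and intervals are 95% limits from the fit. The promoter windows come from RefSeq.

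Whether replicate numbers pair arrays was checked by correlating the deviations of arrays from group means across genes. In 14 of 19 comparisons all 3 same-numbered pairs exceeded 0.1, and there the block result is given where it changed a call or count. The block is said to pair arrays where a comparison passed this check. For treatments it fitted an effect of each number at each time, shared by all groups of that time in an approach. It thus did not pair the groups compared alone. For the control time differences the effect of a number was shared over both times. The mean correlation of same-numbered arrays was 0.0474 to 0.471 over the comparisons, and of other pairs -0.229 to -0.0134. Deviations from a group mean cancel within the group. The mean of other pairs thus largely follows from that of same-numbered pairs and is no separate sign of pairing. This pairing comes from the values, as no label states what equal numbers have in common. The differences between the times were not among the 19 comparisons checked, though AAF passed at each time in both approaches. Block counts are given without the share of all genes called in the block fits, and the shares printed belong to the fits without the block. The number of arrays limits the precision. On simulated data with 200 of 12650 genes changed, the fit recovered 83.6% of 1.5-fold and 100.0% of 2-fold changes for MCA at 120 h in approach 1. For the difference between the times under MCA it recovered 62.7% and 94.0%. Simulated noise was drawn separately for each gene, which leaves out deviations that genes of an array share. In the data 18.8% of all genes were called higher for MCA at 120 h, so recovery there may differ. Alternatives were 1 unit added before log2, no filter, no normalization, median centring, the mean of all probe sets, 1 fit of all arrays, a fit of only the groups compared, the replicate block, and leaving out each array.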

Additional observations from a re-analysis of the deposited data

Results flagged for a closer look

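The response to MCA at 2 µM was larger at 120 h than at 24 h for 37 of the 41 genes in approach 1, by limma's test of the difference of the responses, while 14.8% of all genes were called higher. Among origin licensing genes the difference of responses was 1.80 (Gmnn), 1.63 (Mcm5), 1.62 (Cdt1), 1.62 (Cdc6), 1.48 (Mcm3), 1.16 (Mcm4), 0.88 (Mcm6), 0.71 (Orc6), 0.63 (Orc1), 0.59 (Mcm7) and 0.52 (Mcm2) log2 units. For helicase activation genes it was 1.71 (Cdc45), 1.40 (Gins2), 1.22 (Gins1) and 1.06 (Mcm10). The cyclin E genes gave 1.39 (Ccne2) and 0.55 (Ccne1). In primase and polymerase, values were 1.56 (Pole2), 1.35 (Pola1), 0.92 (Prim2), 0.68 (Pole), 0.37 (Pold1) and 0.36 (Prim1). Clamp and clamp loader genes showed 1.43 (Rfc4), 1.22 (Rfc3), 0.83 (Pcna), 0.53 (Rfc2) and 0.48 (Rfc5). The single-strand binding genes gave 1.05 (Rpa2) and 0.63 (Rpa1). In Okazaki fragment maturation, values were 0.88 (Lig1). Nucleotide supply genes showed 1.81 (Rrm2), 1.77 (Tk1), 1.27 (Dut) and 0.47 (Rrm1). For chromatin copying genes it was 1.15 (Uhrf1) and 0.81 (Chaf1b). These differences were singled out because the same chemical and concentration gave unlike responses at the 2 times; the 24 h and 120 h responses rest on separate DMSO arrays, and the chemicals share those arrays among themselves.

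The response to DAT at 50 µM was larger at 120 h for 26 of the 41 genes, with 4.90% of all genes called higher. Among origin licensing genes the difference of responses was 1.19 (Cdt1), 1.09 (Mcm5), 1.06 (Gmnn), 0.98 (Mcm3), 0.80 (Cdc6), 0.66 (Mcm4), 0.48 (Mcm6), 0.45 (Orc1) and 0.34 (Mcm2) log2 units. For helicase activation genes it was 0.97 (Cdc45), 0.70 (Gins2), 0.66 (Gins1) and 0.61 (Mcm10). The primase and polymerase genes gave 0.98 (Pola1), 0.75 (Pole), 0.72 (Pole2) and 0.39 (Prim2). In clamp and clamp loader, values were 0.76 (Rfc3), 0.73 (Rfc4) and 0.53 (Pcna). Okazaki fragment maturation genes showed 0.46 (Lig1). The nucleotide supply genes gave 1.13 (Tk1), 0.98 (Rrm2) and 0.54 (Dut). In chromatin copying, values were 0.84 (Uhrf1) and 0.51 (Chaf1b). The calls of Dut, Prim2, Orc1 and Cdc6 were each lost without any 1 of several arrays. Where lost, Dut stood at 0.47 to 0.55 (limma adjusted p from 0.0527 to 0.0941). Prim2 then stood at 0.33 to 0.40 (limma adjusted p from 0.0511 to 0.121).

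The response to BaP at 0.5 µM was larger at 120 h for 22 of the 41 genes, with 4.99% of all genes called higher. Among origin licensing genes the difference of responses was 1.08 (Mcm3), 0.96 (Mcm5), 0.93 (Gmnn), 0.85 (Cdc6), 0.84 (Orc1), 0.79 (Cdt1), 0.74 (Mcm2), 0.53 (Mcm4), 0.52 (Mcm6) and 0.37 (Mcm7) log2 units. For helicase activation genes it was 0.76 (Mcm10), 0.61 (Gins2) and 0.56 (Cdc45). The cyclin E genes gave 1.19 (Ccne1). In primase and polymerase, values were 0.80 (Pole). Clamp and clamp loader genes showed 0.40 (Pcna). The single-strand binding genes gave 0.48 (Rpa2). In Okazaki fragment maturation, values were 0.42 (Lig1). Nucleotide supply genes showed 0.78 (Rrm2) and 0.61 (Tk1). For chromatin copying genes it was 0.91 (Uhrf1) and 0.45 (Chaf1b). The calls of Cdc45, Rpa2 and Mcm7 were each lost without any 1 of several arrays. Where lost, Cdc45 stood at 0.49 to 0.57 (limma adjusted p from 0.0503 to 0.0896). Gins2 lost its call without BaP array 2 of 120 h, and Rrm2 without DMSO array 3 of 24 h. Tyms stood at 0.40 under BaP at 24 h, a call lost in 7 of 8 other settings, and at 0.64 at 120 h, and its difference of 0.25 was not called.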

How the results depend on the processing

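Both control time differences and the 120 h counts for BaP, DAT and MCA in approach 1 stayed within 1.5 times of the reported count under every alternative run, and leaving out 1 array gave 40 to 41, 41 to 41, 30 to 34, 37 to 38 and 38 to 40 genes. None of the 297 calls of a gene in a comparison changed sign under any alternative. Without normalization Tyms was no longer called lower over time in approach 2, at -0.56 (limma adjusted p = 0.106). Counts that moved follow, and the cause was not tested in any. One fit of all 60 arrays called 1 for BaP and 0 for DAT at 24 h in approach 1, 2 for BaP, 3 for MCA and 17 for DAT at 24 h in approach 2, 12 for AAF and 1 for MCA at 120 h there, and 13 for BaP and 15 for DAT in the difference between the times. A fit of only the groups compared called 4 for BaP and 0 for DAT at 24 h in approach 1, and 0 for AAF at 120 h in approach 2. Deposited values without normalization called 1 for BaP and 0 for DAT at 24 h in approach 1, 2 for BaP and 1 for MCA at 24 h in approach 2, and 16 for DAT between the times. Arrays centred on their median called 1 for BaP and 0 for DAT at 24 h in approach 1, 1 for DAT at 24 h and 0 for AAF at 120 h in approach 2. The mean of all probe sets of a gene called 1 for AAF and 4 for BaP at 24 h in approach 1, 5 for DAT at 24 h and 0 for AAF at 120 h in approach 2, and 1 for AAF between the times in approach 1, as did adding 1 unit before log2. Testing all genes without a filter moved no count by over 1.5 times.

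With the replicate number as a block, the counts were 1 for AAF, 14 for BaP, 6 for DAT and 3 for MCA at 24 h and 1 for AAF at 120 h in approach 1; 5 for BaP, 21 for DAT and 8 for MCA at 24 h in approach 2; 24 for AAF, 8 for BaP and 4 for MCA at 120 h there; and 2 and 7 for AAF between the times in approaches 1 and 2. The number does not pair the arrays for MCA at 24 h in approach 1 or for BaP at 0.1 µM, so those block counts, 3 and 8, rest on a shared number alone. The block changed no other count by over 1.5 times. Leaving out 1 array gave 1 to 7 for BaP, 0 to 1 for DAT and 0 to 1 for MCA at 24 h in approach 1, 0 to 6 for AAF at 120 h there, 4 to 8 for DAT at 24 h, 1 to 9 for AAF and 0 to 1 for BaP at 120 h in approach 2, and 0 to 6 for AAF between the times in approach 1. With 3 arrays a group, and a wider spread in approach 2, changes under about 1.5-fold may often be missed there. On simulated data, 38.8% of 1.5-fold changes and 71.6% of 2-fold changes were recovered for AAF at 120 h. The noise was again drawn separately for each gene.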
